A study of Arabidopsis thaliana with 8 samples.

Results

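Transcripts of 4 anthocyanin genes were followed in dissected vegetative apices, with their leaf primordia, of Arabidopsis thaliana. The genes were DFR (AT5G42800), UF3GT (AT5G54060), AT4G14090 and AT5MAT (AT3G29590). They were chosen by their measured difference in log2 signal between arrays lettered B and arrays lettered A, which was among the largest on the array at face value. They are 4 of the 13356 genes that have a probe set of their own in the annotation of the Affymetrix ATH1 array. The choice used the difference between letters, so that difference is given here as a description, with no test. The genotypes were no part of the choice and were tested.

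The samples were total RNA from plants of 4 genotypes, 2 arrays each, lettered A and B, on soil for 20 days with 8 h light and 16 h dark at 23 °C. The rGRF3x35S:GIF1 plants are labelled as overexpressing both GRF3 and GIF1. The rGRF3 plants overexpress GRF3, and the 35S:GIF1 plants overexpress GIF1 from the 35S promoter, which is active in most tissues. The Col-0 plants are the wild type. GIF1 is a co-activator of GRF transcription factors, and in published work rGRF3 is a GRF3 version that the microRNA miR396 does not cleave. The labels do not say what the letters mark, whether A and B were separate cultures, or how many independent transgenic lines were used.

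Anthocyanins are red to purple flavonoid pigments of the vacuole, made from phenylalanine through chalcones and dihydroflavonols. In shoots of Arabidopsis they accumulate under strong light, cold, sugar and nutrient shortage. DFR reduces dihydroflavonols at the first step that serves anthocyanins and proanthocyanidins but not flavonols. After the anthocyanidin is made and carries its first glucose, other enzymes decorate it. The UF3GT enzyme adds xylose to that glucose, the AT4G14090 enzyme adds a second glucose elsewhere on the molecule, and the AT5MAT enzyme adds malonate to that second glucose. The late and decorating genes are known targets of a complex of MYB, bHLH and TTG1 proteins.

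All 4 genes had a far higher signal on every B array than on every A array, in each of the 4 genotypes. Values are log2 signals after GCRMA, where 1 unit is a doubling. The lowest value of an array was 2.12, and a signal under 4 is treated here as too low for an exact size.

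DFR, the synthesis gene, had log2 signals on the B arrays of 11.19 in rGRF3x35S:GIF1, 10.30 in rGRF3, 9.88 in 35S:GIF1 and 10.44 in Col-0. On the A arrays it had 6.25 in rGRF3x35S:GIF1, 5.71 in rGRF3, 4.42 in 35S:GIF1 and 6.25 in Col-0. The letters did not overlap, and all 8 values lay above 4, so DFR alone of the 4 genes was measured above that level on both letters. Its mean was 10.45 ± 0.55 on the B arrays and 5.66 ± 0.86 on the A arrays (SD, n = 4 each), a difference of 4.79. The difference within a genotype was 4.94 in rGRF3x35S:GIF1, 4.59 in rGRF3, 5.45 in 35S:GIF1 and 4.19 in Col-0.

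UF3GT, the xylosyltransferase gene, had log2 signals on the B arrays of 8.22 in rGRF3x35S:GIF1, 7.70 in rGRF3, 7.38 in 35S:GIF1 and 8.60 in Col-0. On the A arrays it had 3.52 in rGRF3x35S:GIF1, 3.71 in rGRF3, 2.53 in 35S:GIF1 and 3.10 in Col-0. All 4 A values lay under 4. Set against a level of 4 in place of those values, the mean of the B arrays was at least 15.7-fold higher. The mean log2 difference as deposited was 4.76 ± 0.62 (SD over 4 genotypes), and its size in single genotypes is not exact.

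AT4G14090, the second glucosyltransferase gene, had log2 signals on the B arrays of 8.24 in rGRF3x35S:GIF1, 8.19 in rGRF3, 7.60 in 35S:GIF1 and 9.13 in Col-0. On the A arrays it had 4.07 in rGRF3x35S:GIF1, 3.93 in rGRF3, 3.53 in 35S:GIF1 and 3.77 in Col-0. One A value, that of rGRF3x35S:GIF1, reached 4. The mean of the B arrays was at least 19.4-fold higher when the A values under 4 were set to 4. The mean log2 difference as deposited was 4.47 ± 0.60 (SD over 4 genotypes).

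AT5MAT, the malonyltransferase gene, had log2 signals on the B arrays of 6.46 in rGRF3x35S:GIF1, 6.39 in rGRF3, 5.67 in 35S:GIF1 and 7.38 in Col-0. On the A arrays it had 2.35 in rGRF3x35S:GIF1, 2.41 in rGRF3, 2.25 in 35S:GIF1 and 2.35 in Col-0. The A values lay within 0.17 of each other and close to the floor of 2.12, so they have no order. The mean of the B arrays was at least 5.55-fold higher, counted from a level of 4. The mean log2 difference as deposited was 4.13 ± 0.67 (SD over 4 genotypes).

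**Figure D1:**
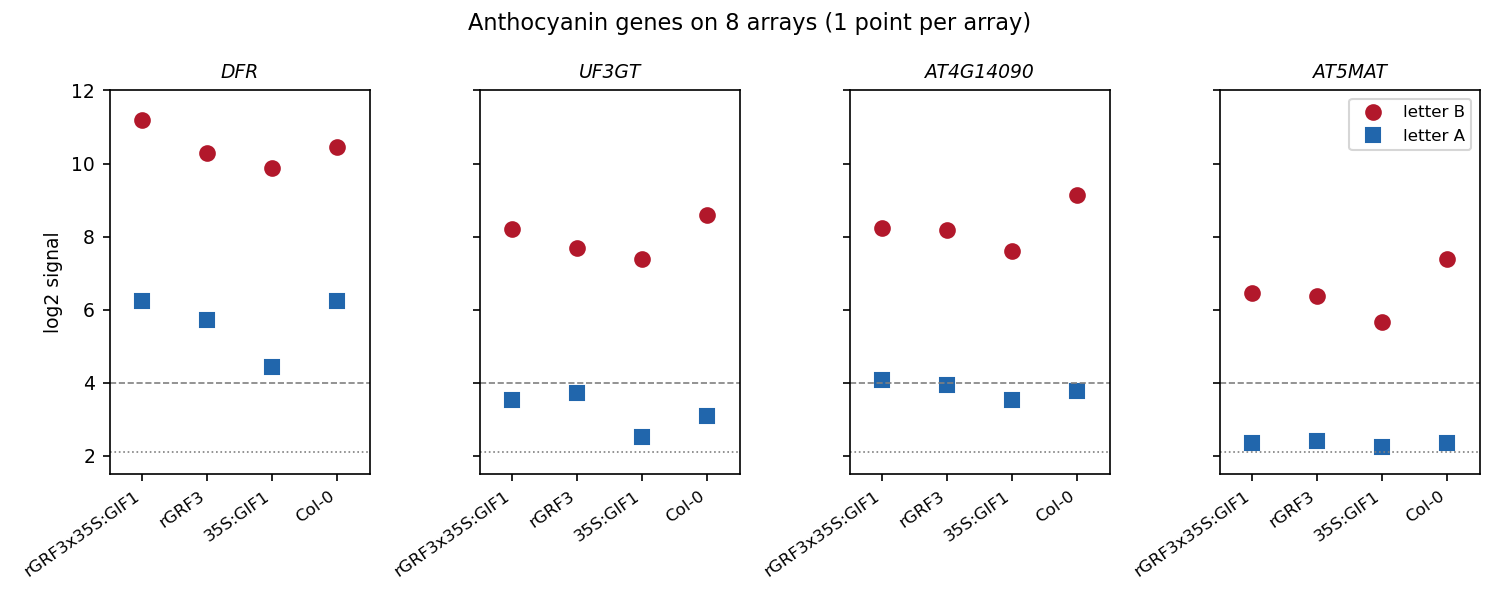
Log2 signal (vertical axis) of DFR, UF3GT, AT4G14090 and AT5MAT in each genotype (horizontal axis), 1 point per array, with circles for letter B and squares for letter A. The dashed line marks a log2 signal of 4 and the dotted line the floor of 2.12; every circle lies above every square of its gene, and the DFR squares alone all lie above the dashed line.

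The tests ran over the 14005 probe sets that reached 4 on at least 2 arrays. UF3GT and AT5MAT reached 4 on the B arrays alone, and AT4G14090 reached it on a single A array besides, short of the 2 needed. UF3GT, AT5MAT and AT4G14090 so passed that filter through the arrays where they were high. The letters differed widely beyond these genes. In limma's fit with genotype and letter, 11.8% of the tested probe sets were higher on the B arrays and 12.7% were lower (adjusted p under 0.05), and 13.6% had every B array above every A array. The median difference of all tested probe sets was -0.01 and their SD was 0.52 on the log2 scale.

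**Figure D2:**
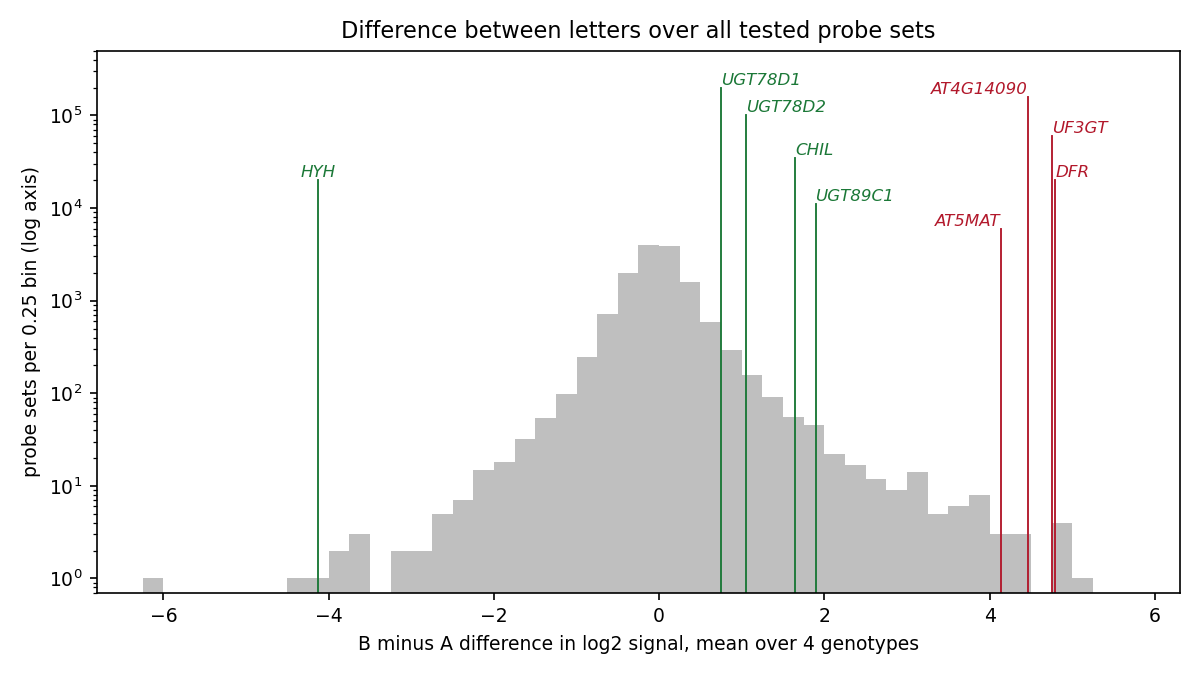
Distribution of the B minus A difference in log2 signal (horizontal axis) over 14005 probe sets, with the number per 0.25 bin on a log axis. The lines at 4.13 to 4.79 mark DFR, UF3GT, AT4G14090 and AT5MAT; CHIL, UGT78D2, UGT78D1 and UGT89C1 lie between 0.74 and 1.89, and HYH lies at -4.13.

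The rest of the flavonoid pathway could be followed only in part. Of 59 listed genes of phenylpropanoid entry, flavonoid synthesis, decoration, transport and regulation, 11 had a probe set of their own in the annotation used, the 4 genes above among them. That annotation lists no gene for 8730 of the 22810 probe sets, and these may measure genes described here as having none. Of the other 7, 5 were tested, and 4 of these rose and 1 fell on the B arrays, where 24.6% of all tested probe sets passed in either direction. Their median log2 difference was 1.05. The listed genes of phenylpropanoid entry, transport and repression, and those for the MYB, bHLH and TTG1 activators, were not analysed here because the annotation used gives none a probe set of its own.

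Among early steps, CHIL, whose protein resembles chalcone isomerase and promotes flux into flavonoids, was 8.29 ± 0.42 on the B arrays and 6.64 ± 0.30 on the A arrays (SD, n = 4 each, log2 difference 1.65, adjusted p = 0.00192 in limma's fit). UGT78D2, which puts the first glucose on anthocyanidins and flavonols, was 8.82 ± 0.46 on the B arrays and 7.77 ± 0.19 on the A arrays (log2 difference 1.05, limma's adjusted p = 0.00575). Both had every B array above every A array, as had 13.6% of all tested probe sets, at signals well above 4 on all 8 arrays.

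In the flavonol branch, which competes with DFR for dihydroflavonols, AT1G06000 (UGT89C1, a flavonol rhamnosyltransferase) was 9.92 ± 0.84 on the B arrays and 8.02 ± 0.15 on the A arrays (log2 difference 1.89, limma's adjusted p = 0.00796). UGT78D1, another flavonol rhamnosyltransferase gene, was 11.16 ± 0.29 on the B arrays and 10.42 ± 0.16 on the A arrays (log2 difference 0.74, limma's adjusted p = 0.00855). Both further branch genes with a probe set of their own lay at or next to the floor on all 8 arrays. They were UGT78D3, a flavonol arabinosyltransferase gene, at up to 2.17, and BAN, the anthocyanidin reductase gene of seed coat proanthocyanidins, at 2.12. Of the activators, HYH, a bZIP factor of light signalling, ran the other way. It was 4.18 ± 1.56 on the B arrays and 8.30 ± 0.49 on the A arrays (log2 difference -4.13, limma's adjusted p = 0.00262), with 2 of its B values under 4.

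When all 22746 probe sets other than controls were tested without the filter, UGT78D2 (adjusted p = 0.0608), AT1G06000 (0.0842 for UGT89C1), UGT78D1 (0.0621) and HYH (0.0501) no longer passed in limma's fit. CHIL passed under every alternative tried.

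**Figure D3:**
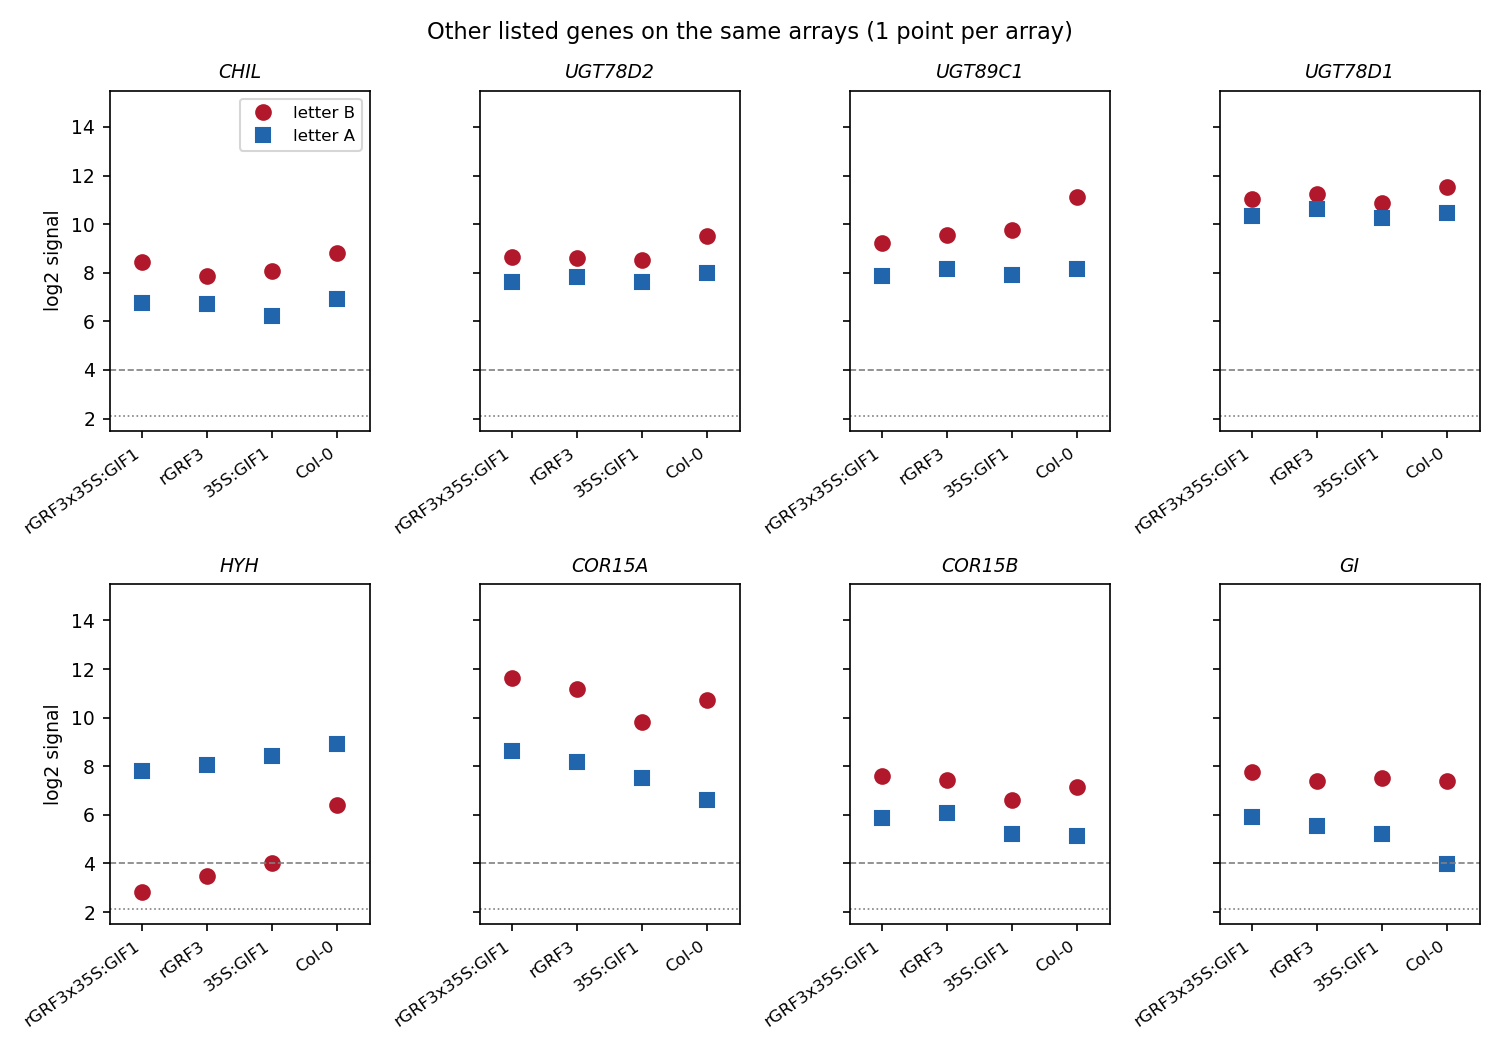
Log2 signal (vertical axis) of 8 other listed genes in each genotype (horizontal axis), 1 point per array, with circles for letter B, squares for letter A, a dashed line at 4 and a dotted line at the floor. For CHIL, UGT78D2, UGT89C1, UGT78D1, COR15A, COR15B and GI the lowest circle lies above the highest square. For HYH the highest circle, 6.40, lies below the lowest square, 7.81. Of all tested probe sets 13.6% had every B array above every A array, and 15.6% had every B array below.

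Listed genes outside the pathway also differed between the letters, and their part in the anthocyanin result was not tested. Of 11 genes of cold and high light response 3 had a probe set of their own in that annotation, and 2 of these rose on the B arrays. Of all tested probe sets 11.8% were higher on those arrays. COR15A, which encodes a cold-induced chloroplast protein, was 10.83 ± 0.78 on the B arrays and 7.73 ± 0.87 on the A arrays (SD, n = 4 each, log2 difference 3.09, limma's adjusted p = 0.00219). COR15B, its close relative, had a log2 difference of 1.63 (limma's adjusted p = 0.00178), and the dehydrin gene COR47 one of 0.26 (limma's adjusted p = 0.265). Summed over these 3 genes, the log2 level was 11.56 to 12.45 on the B arrays and 10.67 to 11.08 on the A arrays. COR15A and COR15B have related sequences, so their probe sets may share signal.

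Of 11 clock genes GI, GIGANTEA, was the one with a probe set of its own in that annotation. It was 7.53 ± 0.18 on the B arrays and 5.16 ± 0.83 on the A arrays (SD, n = 4 each, log2 difference 2.37, limma's adjusted p = 0.00405, or 0.0606 without the filter). Signal for 25S ribosomal RNA, from a control probe set, ranged from 6.34 to 7.01 on the B arrays and from 6.22 to 10.90 on the A arrays. The signal near the 3′ end of actin exceeded that near its 5′ end by 0.85 to 1.13 on the B arrays and by 1.02 to 1.31 on the A arrays. Both actin control probe sets were higher on the B arrays, with mean log2 differences of 0.61 (3′) and 0.73 (5′). Those of GAPDH were higher by 0.35 and 0.42, and those of ubiquitin differed by -0.05 and 0.08, in the same order. Array medians were 5.912 to 5.972 on the B arrays and 5.896 to 5.940 on the A arrays. Of the tissue markers, the leaf gene RCA was 14.12 to 14.28 on the B arrays and 14.38 to 14.72 on the A arrays. RCA did not pass in limma's fit (adjusted p = 0.0623), but it did with the stricter filter (adjusted p = 0.049) and with a trended, robust variance (adjusted p = 0.0151). The primordium gene YAB3 was 8.40 to 8.73 on the B arrays and 8.74 to 8.89 on the A arrays, and did not pass (adjusted p = 0.0789). The meristem marker CLV3 and the root marker AGL42 lay at the floor on all 8 arrays, and the other meristem, root, epidermis and flower markers were not analysed here, having no probe set of their own in that annotation. In whole apices, fewer cells with a transcript and less transcript per cell cannot be told apart.

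Between genotypes, no member passed the test in any of the 7 contrasts. In the fit without the letters the standard errors were 2.39 to 2.76 on the log2 scale (3.38 to 3.90 for the interaction), because each genotype held 1 array of each letter. The lowest adjusted p of any member there was 0.986 in limma's fit. The letter difference that chose the members entered their spread in that fit, so a lack of calls there was to be expected. Few probe sets of any kind passed. The share was 0.00714% for rGRF3x35S:GIF1 and for 35S:GIF1 against Col-0, and 0% for rGRF3 against Col-0, where limma gave 479 probe sets an unadjusted p under 0.05. Taking the letter as a replicate block brought the members' standard errors down to 0.29 to 0.35 (0.41 to 0.49 for the interaction) and left the differences as they were. The values below come from that fit, in which 0 of the 4 genes passed in any contrast either.

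35S:GIF1 had the lowest value of the 4 genotypes in all 4 genes on the B arrays, and in DFR on the A arrays too. Of all tested probe sets 4.92% had 35S:GIF1 lowest on both letters, and this order was noticed after the values were seen. The A values of UF3GT, AT4G14090 and AT5MAT in 35S:GIF1 lay under 4, so for these genes the order rests on the B arrays. There, 35S:GIF1 was lowest for 18.4% of probe sets.

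DFR in 35S:GIF1 was 9.88 on the B array and 4.42 on the A array, against 10.44 and 6.25 in Col-0. The log2 difference was -1.20 (95% interval -1.90 to -0.50, unadjusted p = 0.00577, adjusted p = 0.727 in limma's fit with the replicate block). UF3GT differed by -0.90 (-1.69 to -0.10, limma's adjusted p = 0.918), AT5MAT by -0.90 (-1.75 to -0.05, limma's adjusted p = 0.949) and AT4G14090 by -0.89 (-1.66 to -0.11, limma's adjusted p = 0.916). These intervals are for single genes and leave out 0, while none of the differences passed over all probe sets. All 4 genes had an unadjusted p under 0.05 in that fit, where 5.1% of probe sets did, and the 4 genes share the arrays. The size varied with the letter. On the B arrays the 35S:GIF1 minus Col-0 difference was -0.57 for DFR, -1.22 for UF3GT, -1.53 for AT4G14090 and -1.71 for AT5MAT. On the A arrays it was -1.83 for DFR, -0.57 for UF3GT, -0.24 for AT4G14090 and -0.10 for AT5MAT. The A differences of UF3GT, AT4G14090 and AT5MAT come from values under 4. Their block estimates, intervals and p-values include those A values and are not exact, here and in the contrasts below.

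rGRF3 differed less from Col-0, and for 3 of the 4 genes a direction could be read on the B arrays alone. DFR was 10.30 and 5.71 on the B and A arrays of rGRF3, against 10.44 and 6.25 in Col-0, a log2 difference of -0.34 (95% interval -1.04 to 0.36, limma's adjusted p = 0.665 with the replicate block). UF3GT had -0.90 on the B arrays and 0.61 on the A arrays, AT4G14090 had -0.94 and 0.16, and AT5MAT had -0.99 and 0.06. The A values of these 3 genes lay under 4 in both genotypes, so the sign of their A differences is not read as a direction. Their intervals with the block were -0.94 to 0.66 for UF3GT, -1.16 to 0.38 for AT4G14090 and -1.31 to 0.39 for AT5MAT.

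On the B arrays, rGRF3x35S:GIF1 had a higher value than Col-0 for the synthesis gene and lower values for the decorating genes. DFR was highest there of all 4 genotypes, at 11.19 against 10.44 in Col-0, a difference of 0.75. On that letter rGRF3x35S:GIF1 was highest for 27.3% of probe sets. On the A arrays DFR was 6.25 in both genotypes, a log2 difference of -0.004, so its higher value was seen on the B arrays alone. The decorating genes had lower B values than in Col-0, with log2 differences of -0.38 for UF3GT, -0.89 for AT4G14090 and -0.92 for AT5MAT. With the block, neither DFR (0.37, 95% interval -0.33 to 1.07, limma's adjusted p = 0.522) nor the decorating genes (0.02, -0.30 and -0.46, in the same order) passed. Whether DFR differs from the decorating genes in this respect was not tested. In that contrast 0.0357% of all probe sets passed with the block.

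Compared with 35S:GIF1, rGRF3x35S:GIF1 had higher values of all 4 genes on the B arrays, as did 48.3% of all tested probe sets. On the A arrays DFR was higher too, and the 35S:GIF1 values of the other 3 genes lay under 4, so no order is given. DFR differed by 1.57 (95% interval 0.87 to 2.27, unadjusted p = 0.00152, limma's adjusted p = 0.49 with the replicate block). That was the lowest unadjusted p of any member in a genotype contrast, and it missed the threshold after adjustment. With DFR, 19 of the 14005 probe sets were higher in rGRF3x35S:GIF1 by at least as much, those lower by as much not counted. In either direction, 8.53% had an unadjusted p under 0.05 in that fit. UF3GT differed by 0.92 (0.12 to 1.71), AT4G14090 by 0.59 (-0.18 to 1.36) and AT5MAT by 0.44 (-0.40 to 1.29). Compared with rGRF3, rGRF3x35S:GIF1 differed by 0.71 in DFR (0.01 to 1.41, limma's adjusted p = 0.998 with the block). There 4.67% of probe sets were under 0.05 before adjustment. The differences were 0.16, 0.09 and 0.00 in UF3GT, AT4G14090 and AT5MAT. The single lines set against each other gave rGRF3 minus 35S:GIF1 differences of 0.86 in DFR, 0.75 in UF3GT, 0.50 in AT4G14090 and 0.44 in AT5MAT, and none passed.

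The interaction asks whether 35S:GIF1 shifts a gene by the same amount with and without rGRF3. For DFR, adding 35S:GIF1 gave 0.71 on rGRF3 and -1.20 on Col-0, an interaction of 1.91 on the log2 scale (95% interval 0.92 to 2.90, unadjusted p = 0.00325, limma's adjusted p = 0.998 with the replicate block). It was 1.06 for UF3GT (-0.07 to 2.19), 0.98 for AT4G14090 (-0.12 to 2.08) and 0.91 for AT5MAT (-0.29 to 2.11). None passed, and 0 of 14005 probe sets passed in this contrast with the block, with 480 (3.43%) at an unadjusted p under 0.05 in limma's fit, or 123 without the block.

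**Figure D4:**
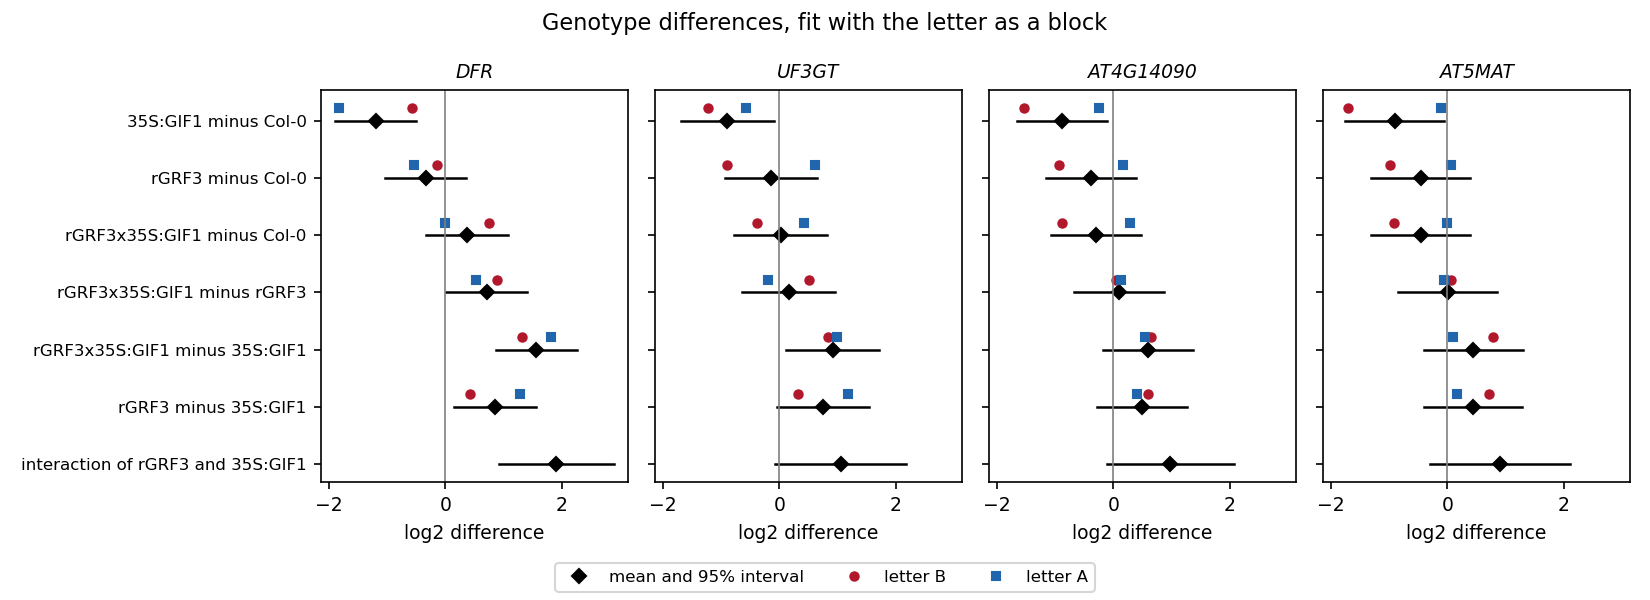
Genotype differences of DFR, UF3GT, AT4G14090 and AT5MAT on the log2 scale (horizontal axis) for 7 contrasts (vertical axis); diamonds with lines are means and 95% intervals of the fit with the letter as a block, circles and squares the differences within letters B and A. All 4 circles of 35S:GIF1 minus Col-0 lie below 0 and all 4 of rGRF3x35S:GIF1 minus 35S:GIF1 above 0; the squares of UF3GT, AT4G14090 and AT5MAT rest on signals near or under 4.

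On the B arrays, where the genes were well measured, the order of genotypes differed between DFR and the decorating genes. DFR ran from rGRF3x35S:GIF1 through Col-0 and rGRF3 to 35S:GIF1. UF3GT, AT4G14090 and AT5MAT each ran from Col-0 through rGRF3x35S:GIF1 and rGRF3 to 35S:GIF1. DFR lay above 4 on the A arrays too. There rGRF3x35S:GIF1 and Col-0 both had 6.25, above rGRF3 (5.71) and 35S:GIF1 (4.42). The place of rGRF3x35S:GIF1 above Col-0 in DFR, by which its order differed, was so seen on the B arrays alone. Neighbours in these orders, such as rGRF3x35S:GIF1 and rGRF3 in AT4G14090 (8.24 and 8.19), have 1 array each and no spread of their own. Col-0 was also highest on the B arrays for CHIL, UGT78D2, AT1G06000 and UGT78D1, the 4 other pathway genes that were higher on that letter. Over all tested probe sets Col-0 was highest on the B arrays for 33.2%. The deposited Col-0 values carry more decimals than the others, and the labels do not say whether they were processed apart.

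The profiles of the 4 genes over the 8 arrays were compared with those of 7595 other single-gene probe sets by Pearson r, as a description. Because the arrays form a cluster for each letter, this r mostly follows the letter. The closest were AT5G55960 (r = 0.99, B minus A 1.06), AT3G13650 (r = 0.99, 1.73), AT1G12845 (r = 0.99, 1.15), GH9B8 (r = 0.99, 1.84), which encodes a family 9 glycosyl hydrolase, and BGLU42 (r = 0.99, 0.61), which encodes a beta-glucosidase. All of them differed between the letters by much less than the 4 anthocyanin genes. With each letter's mean taken off, AT5MAT and AT4G14090 had the most alike profiles among the 4 genes (r = 0.96) and DFR and AT5MAT the least alike (r = 0.27), over 8 arrays. The AT5MAT values on the A arrays lay near the floor, so its part of this measure comes from the B arrays.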

How the data were processed

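Total RNA of 8 samples was measured on Affymetrix ATH1 arrays. The deposited values are log2 signals per probe set. GCRMA and limma are the tools named, per the submitters' processing notes. Versions, scan dates and a genome build are not given in the sources used here. GCRMA compresses low signals towards a floor, so differences from low values are not exact. Of 22810 probe sets, 64 controls stayed out of the tests, 13513 had exactly 1 listed gene, and 13436 of these matched a gene table of assembly TAIR10.1. No probe set of GIF1 or GRF3 was named, so the genotype labels were not checked on them.

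The members and lists were chosen with earlier results of these data known. Probe sets with a log2 signal of at least 4 on at least 2 arrays (14005) were fitted over the 8 arrays by lmFit, contrasts.fit and eBayes of limma 3.58.1 in R 4.3.3. Adjustment was by Benjamini-Hochberg within a contrast, called at 0.05. The letter contrast was fitted with genotype. The fits were run on simulated data. The simulated genotype data held no letter effect, unlike the arrays, so they do not show the power of the genotype fit without the letter. Alternatives were the letter as a replicate block, no filter, a filter at 6, quantile normalisation, a trended robust variance, and each array left out. Tables and plots were made with Python 3.11.15, pandas 2.3.3, numpy 2.4.6 and matplotlib 3.10.9.

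Deviations of same-lettered arrays from their genotype means correlated, across probe sets, between 0.59 and 0.75 in all 6 pairs of genotypes. The letters were therefore taken to pair the arrays; the labels do not state it. Where replicates are technical, the p-values cover technical spread alone. Precision is limited by the small number of arrays. Named genes were all members, every tested pathway gene, up to 4 called genes per direction of the other lists (otherwise the 2 largest), and the 5 genes most alike by r over 8 arrays, with and without letter means.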

Additional observations from a re-analysis of the deposited data

Results flagged for a closer look

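UGT78D2 in Col-0 stood apart among the B arrays. Its log2 signal was 9.51 there, against 8.52 to 8.65 on the other 3 B arrays. The gap to the nearest array was 0.877 of the whole range, above Dixon's limit for 4 arrays. Chance passes this limit in about 1 of 20 groups, and 1 of the 30 groups examined did.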

How the results depend on the processing

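The B minus A difference chose the 4 anthocyanin genes, so its values under the alternatives are a description and no support. The filters and variance settings cannot change it, and leaving out an array only takes 1 genotype out of the mean. With single arrays left out it was 4.58 to 5.0 for DFR and 4.51 to 5.02 for UF3GT. It was 4.17 to 4.60 for AT4G14090 and 3.83 to 4.37 for AT5MAT. With the replicate block no member passed in any genotype contrast (lowest adjusted p = 0.49 in limma's fit), so the block changed no call of a member. Every other alternative left the letter out of the genotype fit. There the letter difference that chose the members entered their spread, so a lack of calls was to be expected and adds no support. Without the letter in the fit, leaving out 1 array sets 1 letter of a genotype against both letters of another. The log2 differences then ranged widely, with a change of sign in each contrast. For 35S:GIF1 against Col-0 they were -3.92 to 1.53 for DFR, -3.65 to 1.86 for UF3GT, -3.42 to 1.61 for AT5MAT and -3.57 to 1.79 for AT4G14090. In rGRF3 against Col-0 the range was -2.64 to 1.96 for DFR, -2.89 to 2.61 for UF3GT, -2.97 to 2.05 for AT5MAT and -3.07 to 2.29 for AT4G14090. Against Col-0, rGRF3x35S:GIF1 gave -2.10 to 2.84 for DFR, -2.73 to 2.77 for UF3GT, -2.97 to 2.05 for AT5MAT and -2.98 to 2.38 for AT4G14090. Against rGRF3 it gave -1.76 to 3.18 for DFR, -2.18 to 2.51 for UF3GT, -2.05 to 2.06 for AT5MAT and -2.04 to 2.22 for AT4G14090. Against 35S:GIF1 it gave -1.16 to 4.29 for DFR, -1.51 to 3.34 for UF3GT, -1.61 to 2.50 for AT5MAT and -1.50 to 2.68 for AT4G14090. Differences of rGRF3 against 35S:GIF1 were -1.87 to 3.58 for DFR, -1.67 to 3.18 for UF3GT, -1.55 to 2.43 for AT5MAT and -1.63 to 2.63 for AT4G14090. The interaction ran -0.82 to 4.63 for DFR, -1.69 to 3.81 for UF3GT, -1.61 to 3.42 for AT5MAT and -1.70 to 3.66 for AT4G14090. Quantile normalisation turned 2 differences that lay near 0, to -0.01 for UF3GT in rGRF3x35S:GIF1 against Col-0 and -0.01 for AT5MAT in rGRF3x35S:GIF1 against rGRF3.

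The number of probe sets called moved when the filter was dropped, except in the interaction, where it was 0 with and without it, with 123 at an unadjusted p under 0.05 in limma's fit with the filter; the cause was not tested. The stricter filter left the count of every genotype contrast as it was. Without a filter it was 0 for 35S:GIF1 and 0 for rGRF3x35S:GIF1 against Col-0 (1 each with the filter) and 1 for rGRF3 against Col-0 (0). It was 3 for rGRF3x35S:GIF1 against rGRF3 (1), 2 for rGRF3x35S:GIF1 against 35S:GIF1 (0), 3 for rGRF3 against 35S:GIF1 (1), and 1069 between the letters (3439). With the replicate block 5 probe sets, not 1, passed in rGRF3x35S:GIF1 against Col-0. With single arrays left out the counts were 0 to 1 for 35S:GIF1 against Col-0 and for rGRF3 against 35S:GIF1, and 0 for rGRF3x35S:GIF1 against Col-0 and against rGRF3. Between the letters they were 1067 to 2649, at 1068 and 1067 without 35S:GIF1 replicate A or B, 1807 and 1835 without rGRF3x35S:GIF1 replicate A or B, and 1986 and 2039 without rGRF3 replicate A or B. The 5 tested pathway genes beside the members, COR15A, COR15B and GI passed between the letters with any 1 array left out. COR47 passed without a Col-0 array (lowest adjusted p = 0.0264). Low signals on the A arrays limit how exactly UF3GT, AT4G14090 and AT5MAT can be compared there.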

Other observations

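With each letter's mean taken off, the single-gene probe sets most like the 4 anthocyanin genes over the 8 arrays were those of CHB3 (r = 0.96), which encodes a chromatin remodelling subunit, AT1G27200 (r = 0.96), AT4G05040 (r = 0.96), AT3G26000 (r = 0.95) and AT4G03260 (r = 0.94). Their B minus A differences on the log2 scale were -0.05, -0.25, -0.33, -0.20 and -0.09, in that order. In all, 16 of 7595 probe sets had an r above 0.9 by this measure, and 252 had one before the letter means were taken off. These are descriptions over arrays that share their letters.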
